A study of Homo sapiens with 18 samples.

Results

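Lymphocytes and other blood cells are the usual home of 3 genes that stood high in erlotinib-resistant lung cancer lines, KLRC3, CST7 and APOBEC3G. They are described here with 4 relatives, KLRC2, APOBEC3B, APOBEC3C and APOBEC3F, so 7 genes of the 18849 that the arrays could name by a unique symbol. KLRC3, CST7 and APOBEC3G were chosen by their normalised signal, which was higher in a resistant line than in HCC827. The differences between lines of those 3 genes are therefore given as a description, with no test. The relatives were set beside them with earlier results of these data known. Further relatives above background on no array, such as KLRC1, KLRC4, APOBEC3A and APOBEC3D, are not among the 7. All 14 probes annotated to the 7 genes are accounted for.

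Total RNA was hybridised to Illumina BeadChips from 6 groups of 3 arrays each. The groups were T15-2 with erlotinib, T15-2 with DMSO, ER3 with erlotinib, ER3 with DMSO, HCC827 with erlotinib and HCC827 with DMSO. HCC827 is a lung adenocarcinoma cell line driven by a mutant EGF receptor, erlotinib inhibits the kinase of that receptor, and DMSO is its solvent. T15-2 and ER3 are resistant sublines that originated from HCC827, and the labels do not say whether either is a clone or which drug exposure produced it. Every group was starved overnight and then received 1 µM erlotinib or DMSO for 12 h, so starvation is shared by the controls. The labels do not tell whether a group's 3 arrays represent independent cultures, and the p-values therefore measure the spread between these arrays, which may be technical.

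The NKG2 receptors of natural killer and T cells are made by neighbouring KLRC genes. KLRC2 encodes NKG2-C and KLRC3 encodes NKG2-E, which pair with CD94, the product of KLRD1, recognise the HLA class I molecule HLA-E and signal through the adaptor DAP12, the product of TYROBP. CST7 encodes cystatin F, an inhibitor of cysteine cathepsins that in cytotoxic lymphocytes restrains cathepsin C, the protease that activates granzymes. The APOBEC3 enzymes deaminate cytosine to uracil in single-stranded DNA. APOBEC3G and APOBEC3F act against retroviruses in T cells, and APOBEC3B, a nuclear member, is common in carcinomas.

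Promoters are printed for KLRC3 and for 2 family members used as comparators, KLRC4 and APOBEC3H, from the RefSeq table of build GRCh38.p14. Each runs from 250 bases before the gene's start to 50 bases after it, on the gene's own strand. KLRC1 had 3 entries in that table, which are not printed. The best local alignment of the KLRC3 promoter with a KLRC1 promoter spanned 22 columns with 19 identical bases, 86.4%. The 3 promoters are shown because KLRC3 was bright in the sublines while its neighbour KLRC4 stayed at background. APOBEC3H was added because it, like APOBEC3G, was higher in ER3 than in HCC827 in DMSO. Capitals mark the letters of a TATA box, TATAAA, read on either strand.
KLRC3, chr12:10420546-10420845, minus strand: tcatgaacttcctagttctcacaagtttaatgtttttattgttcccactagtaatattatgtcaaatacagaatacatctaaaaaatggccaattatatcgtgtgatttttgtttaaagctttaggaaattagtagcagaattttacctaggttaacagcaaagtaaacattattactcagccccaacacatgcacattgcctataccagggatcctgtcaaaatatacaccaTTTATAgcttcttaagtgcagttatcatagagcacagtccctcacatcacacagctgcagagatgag
KLRC4, chr12:10409708-10410007, minus strand: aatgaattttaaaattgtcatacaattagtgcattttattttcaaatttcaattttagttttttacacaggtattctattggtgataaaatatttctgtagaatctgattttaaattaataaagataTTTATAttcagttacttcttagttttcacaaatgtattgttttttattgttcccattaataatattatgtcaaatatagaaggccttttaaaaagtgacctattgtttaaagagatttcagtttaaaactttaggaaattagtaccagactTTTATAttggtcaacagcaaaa
APOBEC3H, chr22:39096994-39097293, plus strand: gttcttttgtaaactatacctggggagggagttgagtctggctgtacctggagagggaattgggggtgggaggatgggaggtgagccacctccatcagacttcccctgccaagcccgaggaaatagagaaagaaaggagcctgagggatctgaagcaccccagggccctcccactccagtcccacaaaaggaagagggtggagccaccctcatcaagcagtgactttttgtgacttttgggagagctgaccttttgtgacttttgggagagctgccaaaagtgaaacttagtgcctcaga
A stretch of the KLRC3 and KLRC4 promoters aligned over 159 columns with 127 identical bases, 79.9%. The letters TATAAA occurred 1 time in KLRC3 and 2 times in KLRC4, and in 11.5% of the 35114 promoters of the table. In KLRC3 and KLRC4 they lie on the strand opposite to the gene and read TTTATA as printed. They span bases 234 to 239 in KLRC3. In KLRC4 the first match begins at base 128 and the last ends at base 284, after the gene's start. Whether any of them acts as a TATA box was not tested. Searches on both strands for AP-1 (TGANTCA), the core of the interferon-stimulated response element, STAT (TTCNNNGAA) and RUNX (TGTGGT) found no match in these 3 windows. Those letters are present in 7.71%, 3.57%, 7.66% and 13.1% of the table's promoters, in that order.

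Levels are log2 of the background-corrected, quantile-normalised signal, and a probe counts as above background on an array where its deposited detection p is below 0.05. The dimmest probes above background lay between 4.82 and 4.98 on this scale, depending on the array. Between 15698 and 17869 of 48803 probes were above background per array. In bulk RNA, fewer cells with a transcript and less transcript per cell cannot be told apart. The tests below come from a limma fit of all 18 arrays over 19931 probes, with Benjamini-Hochberg adjustment over all of them and a threshold of 0.05. Differences are on the log2 scale with their standard error, and 3 arrays a group limit their precision. The name of a lymphocyte type was checked against T and NK cell markers. Of 41 such markers on the array, 24 were above background on none of the 18 arrays, among them PTPRC (the pan-leukocyte CD45), CD3D, CD8A, KLRD1, PRF1, GZMB and TBX21. The rest were above background on some arrays. Those above it on all arrays of a line were SH2D1A, FCGR3A, EOMES and CCL5 in T15-2 and CORO1A and CCL5 in ER3. In HCC827 they were KLRG1, CORO1A and CCL5. The epithelial markers EPCAM, KRT8, KRT19 and CDH1 were above background on all arrays of all groups. The genes are therefore called by their symbols below.

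KLRC3 was bright in the resistant lines by a lone probe, ILMN_2386790. On the 3 arrays of each group it read 8.21, 8.31 and 8.36 in T15-2 with erlotinib, and 8.10, 7.76 and 8.09 in T15-2 with DMSO. It read 9.16, 9.26 and 9.19 in ER3 with erlotinib, and 8.97, 9.01 and 8.81 in ER3 with DMSO. HCC827 gave 5.82, 5.68 and 5.72 with erlotinib, and 5.77, 5.94 and 5.81 with DMSO. Every ER3 array lay above every T15-2 array, and every T15-2 array above every HCC827 array, while the probe was above background throughout. In DMSO the level was higher by 2.15 ± 0.10 in T15-2 and by 3.09 ± 0.10 in ER3 than in HCC827, which is 4.43-fold and 8.51-fold. With erlotinib these differences were 2.55 ± 0.10 for T15-2 and 3.46 ± 0.10 for ER3. T15-2 minus ER3 was −0.94 ± 0.10 in DMSO. The order of the 6 group means was ER3 with erlotinib, ER3 with DMSO, T15-2 with erlotinib, T15-2 with DMSO, then the HCC827 groups, and only the HCC827 groups overlapped with their neighbour.

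The other KLRC3 probes did not show this. ILMN_1691287, annotated to the same transcript as the bright probe, was above background on 2 of 18 arrays and ranged from 4.53 to 4.89. ILMN_1781897, annotated to another KLRC3 transcript, was above background on none and ranged from 4.33 to 4.74. Both were removed by the filter on dim probes, which needed a detection p below 0.05 on 3 arrays.

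KLRC2 had the same split between probes. ILMN_2059357 read 7.03, 6.84 and 6.60 in T15-2 with erlotinib and 6.10, 6.54 and 6.43 in T15-2 with DMSO. It read 6.96, 6.74 and 6.89 in ER3 with erlotinib and 6.01, 6.62 and 6.10 in ER3 with DMSO. HCC827 gave 4.80, 4.68 and 4.68 with erlotinib and 4.51, 4.78 and 4.80 with DMSO, none of them above background. The arrays of the 2 sublines overlapped each other and lay clear of HCC827. KLRC2 was at least 2.83-fold higher in T15-2 than in HCC827 in DMSO (log2 difference 1.66 ± 0.15, limma adjusted p = 5.5e-08) and at least 2.61-fold higher in ER3 (1.54 ± 0.15, limma adjusted p = 1.6e-07). KLRC2 passed the filter on dim probes through the sublines' arrays alone, where it was high, so these p-values are not independent of that filter. The calls held in all 28 alternative settings, no filter included, with adjusted p up to 1.1e-05 in T15-2 and 1.1e-04 in ER3. The bounds set the dim group at the lowest signal that counted as above background on its arrays. With erlotinib the bounds were 3.95-fold for T15-2 and 4.07-fold for ER3. T15-2 differed from ER3 in DMSO by 0.12 ± 0.15 (limma adjusted p = 0.61). The second KLRC2 probe, ILMN_1707328, was above background on no array and ranged from 4.43 to 4.68. KLRC2 and KLRC3 are close paralogs, and whether a probe of one binds transcripts of the other was not tested.

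The rest of the receptor complex was dark. KLRC1 (NKG2-A, the inhibitory receptor) with 3 probes, KLRC4, KLRK1 (NKG2-D) and KLRD1 (CD94) with 3 probes were above background on no array. The partner that KLRC2 and KLRC3 proteins need in lymphocytes thus had no signal above background here, and neither had TYROBP, the gene of the adaptor DAP12. Of 15 further receptors, adaptors and ligands of the family, 5 were measured. The stress ligand MICB was higher in ER3 than in HCC827 in DMSO (0.67 ± 0.14, limma adjusted p = 8.6e-04), and HLA-E was higher by 0.33 ± 0.10 (adjusted p = 0.012). The HLA-E call was lost with median scaling and without HCC827 DMSO replicate 2 or ER3 DMSO replicate 1. In T15-2 no gene of the 5 was called by limma, and 1 had an unadjusted p below 0.05. HLA-E read −0.14 ± 0.10 there, MICB −0.25 ± 0.14 and MICA −0.31 ± 0.13. The list's median was −0.19 in T15-2 and 0.24 in ER3, against 0.01 and −0.02 over all 11820 genes in the same comparisons. Of those 11820 genes, 30.3% were called in T15-2 (14.8% higher, 15.5% lower) and 33.3% in ER3 (15.2% higher, 18.1% lower).

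**Figure D1:**
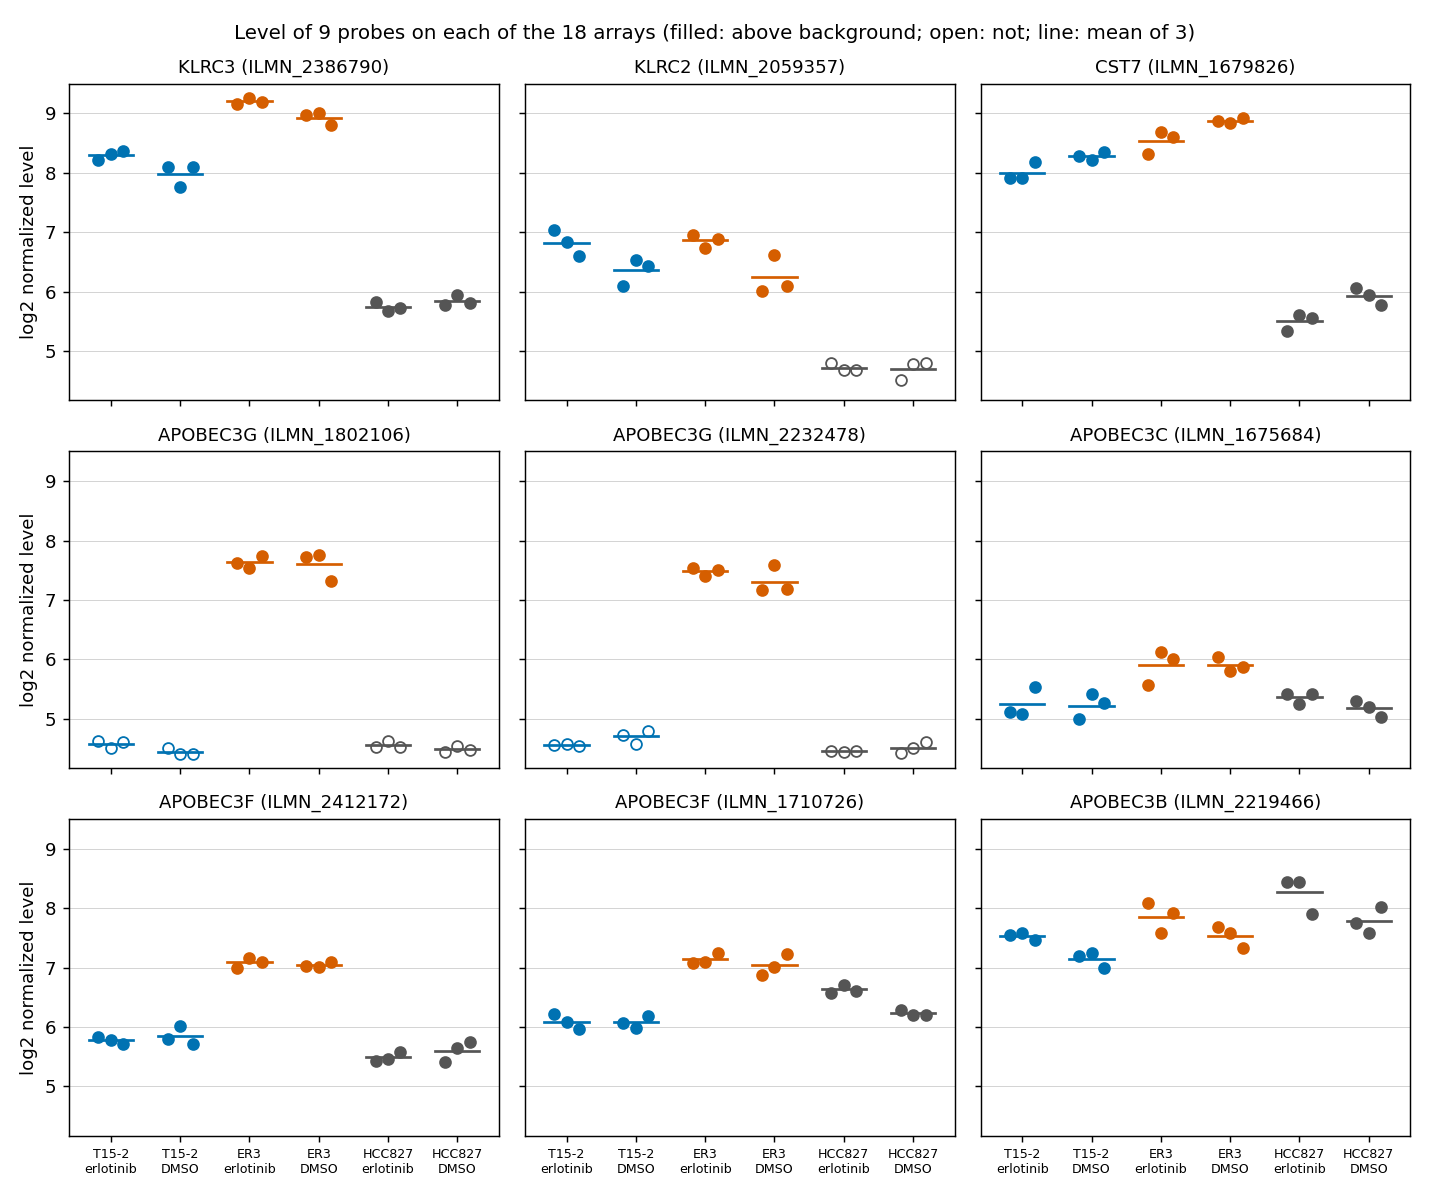
Log2 normalised level of 9 probes of the 7 genes on each of the 18 arrays, by line and treatment; filled points are above background, open points are not, and lines are means of 3 arrays. The drawn probes of KLRC3, KLRC2 and CST7 stand high in T15-2 and ER3, APOBEC3G in ER3 alone, where it lies between 7.16 and 7.76, and APOBEC3B is present in every line. The KLRC3 and KLRC2 probes removed as too dim are not drawn, nor are the APOBEC3F probes ILMN_2296950 and ILMN_1702706.

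CST7, read by its only probe ILMN_1679826, was high in both sublines and lower with erlotinib in the parental line. It read 7.91, 7.92 and 8.18 in T15-2 with erlotinib and 8.28, 8.22 and 8.35 in T15-2 with DMSO. ER3 gave 8.32, 8.68 and 8.61 with erlotinib and 8.87, 8.84 and 8.92 with DMSO. HCC827 gave 5.34, 5.60 and 5.55 with erlotinib and 6.06, 5.94 and 5.78 with DMSO. No subline array came near an HCC827 array, and within each line the erlotinib arrays all lay below the DMSO arrays. In DMSO the level was higher by 2.36 ± 0.11 in T15-2 and by 2.95 ± 0.11 in ER3, which is 5.12-fold and 7.73-fold over HCC827. T15-2 minus ER3 was −0.59 ± 0.11. With erlotinib the differences from HCC827 were 2.51 ± 0.11 for T15-2 and 3.04 ± 0.11 for ER3.

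Erlotinib lowered CST7 in HCC827. The choice of genes compared lines rather than treatments, but it drew on these HCC827 arrays, so the test is not independent of it. The difference of erlotinib from DMSO was −0.43 ± 0.11 (limma adjusted p = 0.0053). It was −0.28 ± 0.11 in T15-2 (adjusted p = 0.16) and −0.34 ± 0.11 in ER3 (adjusted p = 0.11). The response of T15-2 minus that of HCC827 was 0.15 ± 0.16 (limma adjusted p = 0.60), and that of ER3 minus that of HCC827 was 0.09 ± 0.16 (adjusted p = 0.75), so no difference between the lines was shown.

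The other cystatins, the cathepsins and legumain went several ways. The list also holds CTSA, a serine carboxypeptidase, and CTSD, an aspartic protease, which cystatins do not inhibit. Of 17 measured, 4 rose and 7 fell in T15-2 against HCC827 in DMSO, and 3 rose and 4 fell in ER3, where 30.3% and 33.3% of all genes were called. CTSC, the cathepsin C that activates granzymes, fell in T15-2 (−1.02 ± 0.09, limma adjusted p = 3e-08) and in ER3 (−0.88 ± 0.09, adjusted p = 2.5e-07). CTSV, a cathepsin L relative, fell in T15-2 (−0.87 ± 0.11) and in ER3 (−1.61 ± 0.11). CTSH, an aminopeptidase, fell in T15-2 (−0.77 ± 0.10) and in ER3 (−0.89 ± 0.10). CST6, the secreted cystatin M, fell in T15-2 (−1.10 ± 0.13) and rose in ER3 (0.67 ± 0.13, adjusted p = 6.8e-04). The medians of the list were −0.01 in T15-2 and 0 in ER3, close to those of all genes. With erlotinib in HCC827, 7 of the 17 rose and 1 fell, where 18.3% of all genes were called higher and 17.6% lower, led by CTSS, the antigen-processing cathepsin S (0.82 ± 0.12, limma adjusted p = 2.4e-05). CTSB, CTSF, CTSA, CTSH and LGMN were among those 7, and their calls were lost with median scaling. CTSK, the seventh, lost its call without HCC827 DMSO replicate 1, and CST9, the gene that fell, was called in 7 of 28 settings.

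APOBEC3G was seen in ER3 and nowhere else. Probe ILMN_1802106 read 4.63, 4.50 and 4.60 in T15-2 with erlotinib and 4.51, 4.41 and 4.41 in T15-2 with DMSO. It read 7.62, 7.54 and 7.74 in ER3 with erlotinib and 7.72, 7.76 and 7.32 in ER3 with DMSO. HCC827 gave 4.53, 4.62 and 4.53 with erlotinib and 4.44, 4.54 and 4.48 with DMSO. The 6 ER3 arrays were above background and the other 12 were not. The second probe, ILMN_2232478, split the arrays the same way, with ER3 between 7.16 and 7.58 and the other arrays between 4.42 and 4.80. The 2 probes put ER3 at least 6.69-fold and 5.47-fold above HCC827 in DMSO, and at least 6.93-fold and 6.24-fold above it with erlotinib. T15-2 was at least 6.64-fold and 5.42-fold below ER3 in DMSO. T15-2 and HCC827 were both below background, so no fold is given between them.

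**Figure D2:**
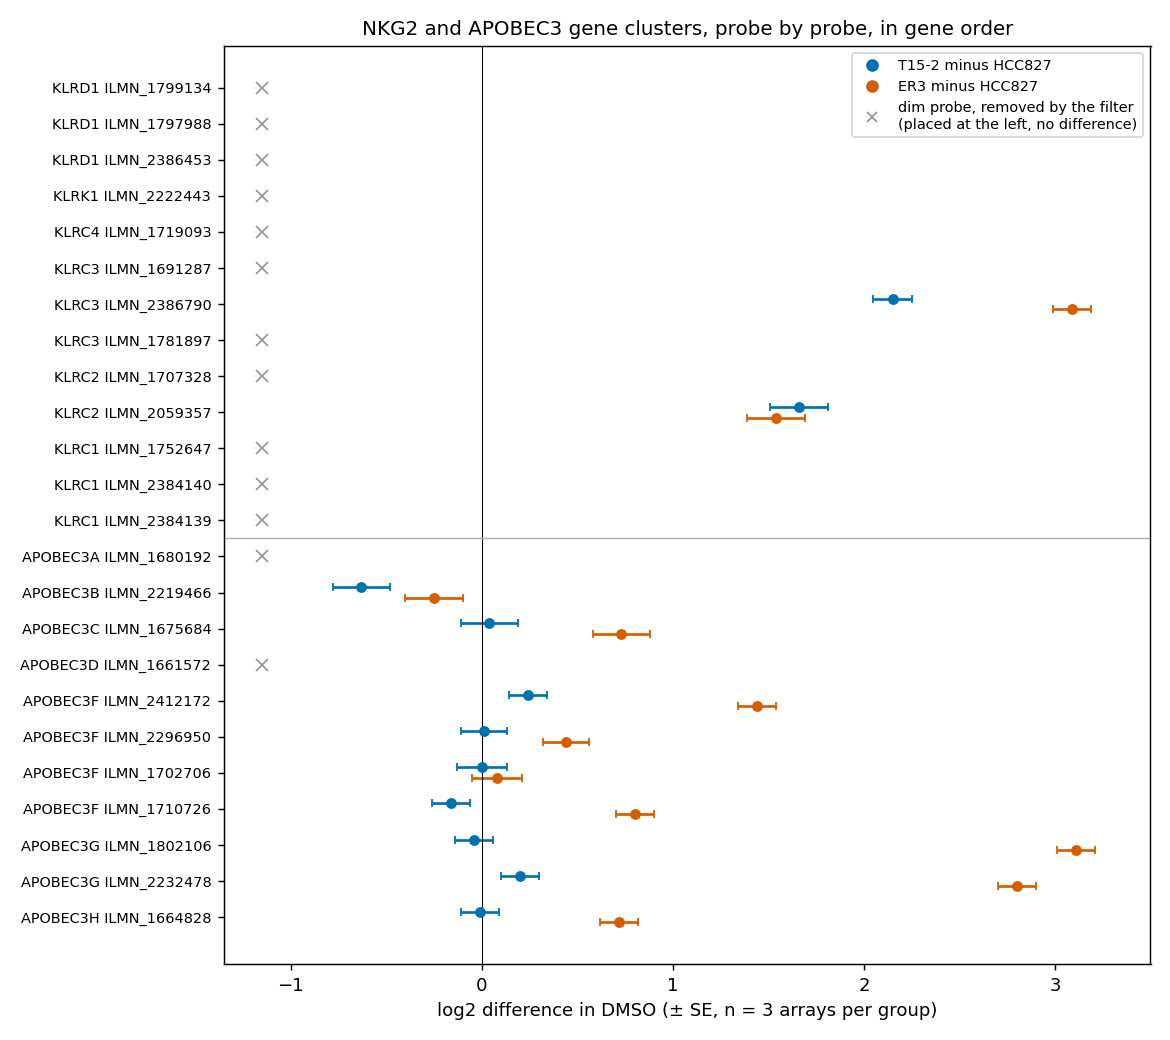
Log2 difference from HCC827 in DMSO, with standard error (3 arrays a group), for each probe of the NKG2 and APOBEC3 gene clusters in gene order; crosses are probes removed as too dim. In the NKG2 cluster 1 probe each of KLRC3 and KLRC2 lies above 0 in both sublines, and in the APOBEC3 cluster ER3 is at least 6.69-fold and 5.47-fold above HCC827 at the APOBEC3G probes, whose plotted differences are set against HCC827 levels not above background.

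APOBEC3C and 3 of the 4 APOBEC3F probes were also higher in ER3, and APOBEC3B was not. Of the 7 probes of KLRC2, APOBEC3B, APOBEC3C and APOBEC3F, 5 were called higher in ER3 than in HCC827 in DMSO, where 29.3% of all probes were called in either direction, 14.4% higher and 14.8% lower. In T15-2, 1 of the 7 was called higher and 1 lower, where 26.4% of all probes were called, 13.5% higher and 12.9% lower. Between the sublines, 4 of the 7 were called lower in T15-2 than in ER3, where 28% of all probes were called, 14.7% higher and 13.3% lower. KLRC2 and the APOBEC3F probe ILMN_1702706 are among the 7 and passed the filter through subline arrays alone. As 4 of the 7 probes are of APOBEC3F, these counts are of probes and not of separate genes. The relatives were also picked with earlier results of these data known. These comparisons share arrays, the HCC827 arrays in the first pair and the sublines' arrays with the last, so they are not independent.

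APOBEC3F, which like APOBEC3G restricts retroviruses, was read by 4 probes that differed in size. ILMN_2412172 read 5.80, 6.01 and 5.72 in T15-2 with DMSO, 7.03, 7.01 and 7.10 in ER3 with DMSO, and 5.41, 5.65 and 5.75 in HCC827 with DMSO. ER3 stood clear of the other lines, which overlapped. It was higher in ER3 than in HCC827 by 1.44 ± 0.10 (limma adjusted p = 1.4e-09) and T15-2 minus ER3 was −1.20 ± 0.10 (adjusted p = 3.1e-08). With erlotinib the ER3 difference was 1.60 ± 0.10 (limma adjusted p = 1.5e-10).

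ILMN_1710726 gave 6.06, 5.98 and 6.19 in T15-2 with DMSO, 6.88, 7.01 and 7.23 in ER3 with DMSO, and 6.29, 6.20 and 6.21 in HCC827 with DMSO. ER3 was again the high line, by 0.80 ± 0.10 over HCC827 (limma adjusted p = 5.9e-06), and T15-2 minus ER3 was −0.97 ± 0.10 (adjusted p = 7.5e-07). ILMN_2296950 was higher in ER3 by 0.44 ± 0.12 (limma adjusted p = 0.0077), a call lost with median scaling. ILMN_1702706 was above background on 3 ER3 arrays only and differed by 0.08 ± 0.13 (adjusted p = 0.69). APOBEC3F and APOBEC3G are close paralogs, and binding of APOBEC3G transcripts by an APOBEC3F probe was not tested.

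APOBEC3C, a broadly expressed deaminase, was low but above background on every array. It read 4.99, 5.41 and 5.26 in T15-2 with DMSO, 6.04, 5.81 and 5.87 in ER3 with DMSO, and 5.30, 5.19 and 5.03 in HCC827 with DMSO. The ER3 arrays lay above those of the other lines, which overlapped. The difference from HCC827 was 0.04 ± 0.15 in T15-2 (limma adjusted p = 0.87) and 0.73 ± 0.15 in ER3 (adjusted p = 8.3e-04). T15-2 minus ER3 was −0.69 ± 0.15 (limma adjusted p = 0.0016). With erlotinib ER3 was higher than HCC827 by 0.54 ± 0.15 (adjusted p = 0.0061).

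APOBEC3B was read well above background in all lines and moved the other way. Its probe ILMN_2219466 read 7.55, 7.59 and 7.47 in T15-2 with erlotinib, 8.08, 7.58 and 7.92 in ER3 with erlotinib, and 8.45, 8.45 and 7.91 in HCC827 with erlotinib. In DMSO it read 7.20, 7.25 and 7.00 in T15-2, 7.68, 7.58 and 7.33 in ER3, and 7.75, 7.58 and 8.02 in HCC827. T15-2 lay below HCC827 in either treatment without overlap, below ER3 in DMSO only, and ER3 overlapped HCC827. APOBEC3B fell in T15-2 against HCC827, with differences of −0.63 ± 0.15 in DMSO (limma adjusted p = 0.0040) and −0.73 ± 0.15 with erlotinib (adjusted p = 7.6e-04). In ER3 the difference was −0.25 ± 0.15 in DMSO (limma adjusted p = 0.24, or −0.56 with an adjusted p of 0.027 under median scaling) and −0.41 ± 0.15 with erlotinib (adjusted p = 0.042). That last call was lost with median scaling (adjusted p = 0.24), when T15-2 was left out of the fit together with the DMSO arrays (0.069), with no filter on dim probes (0.10), and without HCC827 erlotinib replicate 1 or 2 or ER3 erlotinib replicate 2 or 3 (0.065 to 0.22).

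Beyond these genes the APOBEC3 cluster was partly dark. APOBEC3A and APOBEC3D were above background on no array. APOBEC3H was above background on all 6 ER3 arrays, on 1 HCC827 array and on no T15-2 array. In DMSO it was at least 1.41-fold higher in ER3 than in HCC827 (0.72 ± 0.10, limma adjusted p = 2.3e-05), and T15-2 was at least 1.40-fold below ER3. With erlotinib APOBEC3H was higher in ER3 than in HCC827 by 0.28 ± 0.10 (limma adjusted p = 0.036). Erlotinib minus DMSO in ER3 was −0.32 ± 0.10 (limma adjusted p = 0.096). The response of ER3 minus that of HCC827, where APOBEC3H was near background, was −0.44 ± 0.14 (limma adjusted p = 0.043). APOBEC3H passed the filter on dim probes through ER3, where it was high, so its p-values are not independent of that filter. In ER3 with DMSO, then, APOBEC3C, APOBEC3F on 3 of 4 probes and APOBEC3H were higher beside APOBEC3G, and APOBEC3B did not pass the test. With erlotinib, 5 of the 7 probes of KLRC2 and the APOBEC3 relatives were called higher in ER3 than in HCC827 and 1 lower, where 37.6% of all probes were called, 18.8% higher and 18.8% lower. In T15-2 with erlotinib, 2 were called higher and 2 lower, where 36.1% of all probes were called, 18.6% higher and 17.5% lower. Those called higher were KLRC2 and the APOBEC3F probe ILMN_2412172 (0.29 ± 0.10, limma adjusted p = 0.032, called in 19 of 27 settings), and those called lower were APOBEC3B and the APOBEC3F probe ILMN_1710726 (−0.55 ± 0.10, adjusted p = 2.8e-04), so the APOBEC3F probes disagreed.

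Interferon-stimulated genes, a class to which several APOBEC3 genes belong in immune cells, went down in the sublines. Of 26 measured, 25 fell in T15-2 against HCC827 in DMSO and 22 fell in ER3, where 15.5% and 18.1% of all genes were called lower. The median was −1.77 in T15-2 and −0.91 in ER3, against 0.01 and −0.02 over all genes. OAS2, an activator of RNase L, fell in T15-2 (−4.14 ± 0.10, limma adjusted p = 3.6e-16) and in ER3 (−2.10 ± 0.10, adjusted p = 3.7e-12). The antiviral GTPase MX1 fell in T15-2 (−3.61 ± 0.10) and in ER3 (−1.82 ± 0.10). IFI27 fell in T15-2 (−4.11 ± 0.15) and in ER3 (−2.31 ± 0.15). The gain of APOBEC3G, APOBEC3C, APOBEC3F and APOBEC3H in ER3 stood beside lower values of most other interferon-stimulated genes in the same arrays. A link between them was not tested. T15-2 was lower than ER3 for 23 of the 26, with a median of −0.77, where 14.7% of all genes were called lower. Over all alternative settings the number that fell was 24 to 26 in T15-2 and 20 to 26 in ER3.

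Of 12 repair enzymes that act on uracil left by deaminases or on the abasic sites that follow, 3 fell in T15-2 against HCC827 in DMSO, and 2 rose and 3 fell in ER3. These shares are near those of all genes, of which 30.3% were called in T15-2 and 33.3% in ER3. TDG, a glycosylase, fell in T15-2 (−0.99 ± 0.10, limma adjusted p = 2.2e-07) and in ER3 (−0.42 ± 0.10, adjusted p = 0.0028). UNG, the main uracil DNA glycosylase, differed by 0.16 ± 0.11 in T15-2 (limma adjusted p = 0.31) and fell in ER3 (−0.65 ± 0.11, adjusted p = 1.4e-04). DUT, which clears dUTP, fell in ER3 (−0.71 ± 0.10). POLB, the repair polymerase, rose by 0.50 ± 0.09 in ER3, a call lost with median scaling. The medians were −0.02 in T15-2 and −0.08 in ER3.

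**Figure D3:**
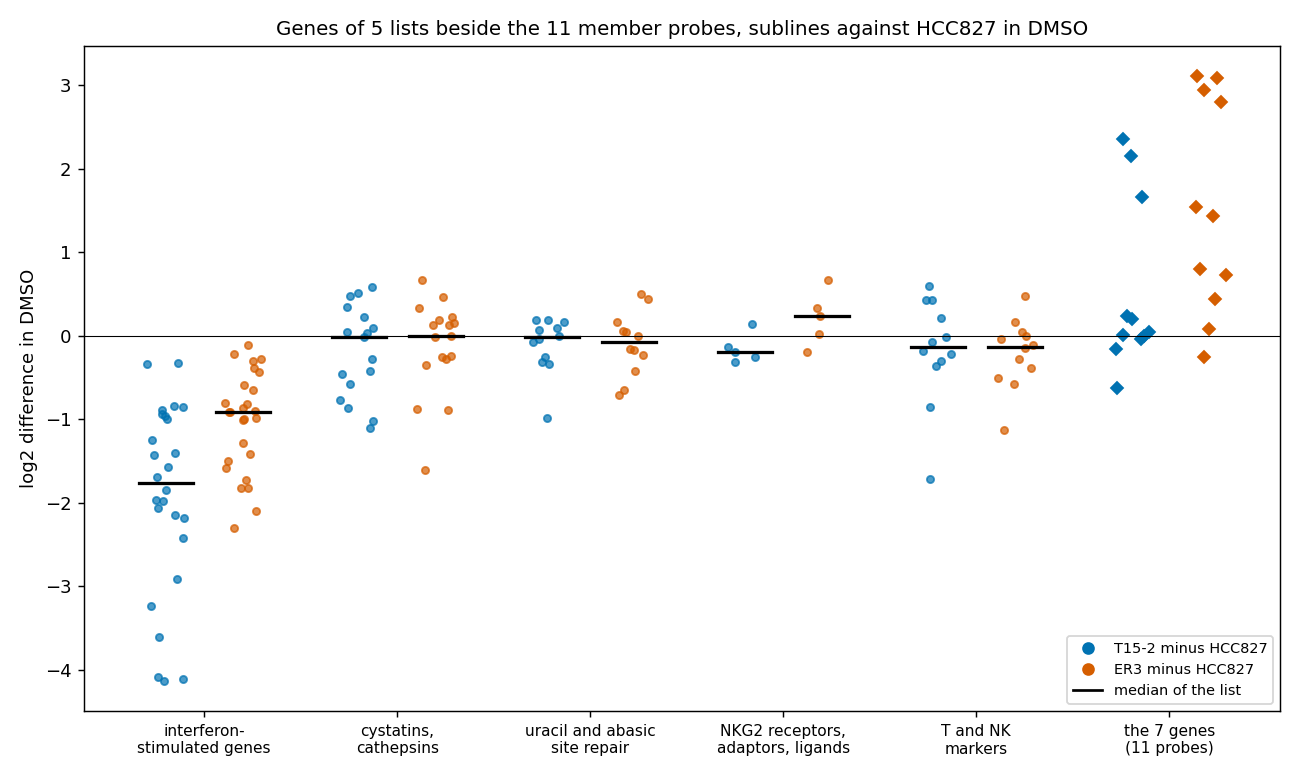
Log2 difference from HCC827 in DMSO of each measured gene of 5 lists, with the list median as a bar, beside the 11 kept probes of the 7 genes (diamonds). Interferon-stimulated genes lie below 0 in T15-2 (median −1.77) and in ER3 (median −0.91), while the medians are −0.01 and 0 for cystatins and cathepsins, −0.02 and −0.08 for uracil repair, −0.19 and 0.24 for the NKG2 list, and −0.13 in both sublines for lymphocyte markers.

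The T and NK markers that could be measured gave no general rise in the sublines. Of 12 measured, 2 rose and 4 fell in T15-2 against HCC827 in DMSO, and 1 rose and 5 fell in ER3, where 30.3% and 33.3% of all genes were called. EOMES, a T-box factor of NK cells, rose in T15-2 (0.60 ± 0.12, limma adjusted p = 6.4e-04) and fell in ER3 (−0.51 ± 0.12, adjusted p = 0.0024). LCK, a kinase of T cells, rose in ER3 (0.47 ± 0.13, limma adjusted p = 0.0090), a call lost without ER3 DMSO replicate 1. The chemokine CCL5 fell in T15-2 (−1.72 ± 0.10) and in ER3 (−1.13 ± 0.10). The summed level of the 41 markers, as linear normalised signal, ranged over 1167 to 1206 in T15-2, 1184 to 1229 in ER3 and 1422 to 1835 in HCC827. Only 3 to 10 of the 41 were above background per array. The sum therefore also holds the background-level values of the rest and does not measure lymphocyte content. Of 11 B cell markers 5 were above background on no array, MS4A1 and PAX5 among them, and of 3 measured 1 rose in T15-2 while 1 rose and 1 fell in ER3. Of 13 myeloid markers 6 were above background on none, SPI1 and ITGAM among them, while the summed level was 3730 to 4587 in T15-2, 3526 to 4195 in ER3 and 2742 to 3218 in HCC827. Of 6 myeloid markers measured, 1 rose and 1 fell in T15-2 against HCC827 in DMSO, and 2 rose in ER3. In the same comparisons 30.3% and 33.3% of all genes were called. CD68, a lysosomal protein of macrophages, rose by 0.48 ± 0.09 in T15-2 and by 0.39 ± 0.09 in ER3, calls lost with median scaling. Of 11 epithelial markers, 7 fell in T15-2 (median −0.51), and 1 rose and 2 fell in ER3 (median 0.18). The part of other cell types in the member genes' values was not tested beyond these levels.

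Erlotinib changed few of the 11 kept probes. In T15-2 none was called by limma, 4 had an unadjusted p below 0.05, and 5.68% of all probes were called, 2.73% higher and 2.95% lower. In ER3 1 was called higher, where 2.37% of all probes were called, 1.2% higher and 1.17% lower. In HCC827 2 were called higher and 1 lower, where 31% of all probes were called, 16% higher and 15% lower, so the share among these probes was near that of all probes. The 11 include KLRC2, both APOBEC3G probes and the APOBEC3F probe ILMN_1702706, which were above background on no HCC827 array. For the APOBEC3G probes and ILMN_1702706 this was also so in T15-2.

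KLRC2 was the gene called in ER3. Erlotinib raised it by 0.62 ± 0.15 (limma adjusted p = 0.033), with all 3 erlotinib arrays above all 3 DMSO arrays. The call was lost without ER3 DMSO replicate 1 (adjusted p = 0.15) or 3 (0.11), without ER3 erlotinib replicate 1 (0.13) or 3 (0.076), when the fit held those 2 groups only (0.19) and with no filter on dim probes (0.061). In T15-2 the difference was 0.47 ± 0.15 (limma adjusted p = 0.075) and in HCC827, where the probe was below background, 0.02 ± 0.15. KLRC3 read 0.31 ± 0.10 higher with erlotinib in T15-2 (limma adjusted p = 0.078), 0.27 ± 0.10 in ER3 (adjusted p = 0.15) and −0.10 ± 0.10 in HCC827 (adjusted p = 0.50). The KLRC3 arrays with erlotinib did not overlap those with DMSO in T15-2 or in ER3, though neither difference passed the test.

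In HCC827 the 2 probes that rose were of APOBEC3B and APOBEC3F. APOBEC3B was higher by 0.49 ± 0.15 (limma adjusted p = 0.019), and its arrays overlapped between treatments. That call was lost with median scaling (adjusted p = 0.31) and without HCC827 DMSO replicate 1 (0.058) or 2 (0.099) or HCC827 erlotinib replicate 1 (0.092) or 2 (0.097). The APOBEC3F probe ILMN_1710726 read 6.58, 6.71 and 6.61 with erlotinib against 6.29, 6.20 and 6.21 with DMSO, a difference of 0.40 ± 0.10 (limma adjusted p = 0.0056) with no overlap, lost with median scaling (0.13). The other APOBEC3F probes gave −0.12 to 0.02 in HCC827, so the probes of that gene disagreed. APOBEC3B read 0.39 ± 0.15 in T15-2 (adjusted p = 0.15) and 0.33 ± 0.15 in ER3 (adjusted p = 0.26). APOBEC3G differed by 0.03 ± 0.10 and 0.17 ± 0.10 on its 2 probes in ER3, with adjusted p of 0.90 and 0.41. APOBEC1, the deaminase that edits apolipoprotein B mRNA, averaged 5.75 with erlotinib and 4.77 with DMSO in HCC827, where it was above background on 3 and on 1 of the 3 arrays, and was above background on no subline array.

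No response of the 11 probes was shown to differ between a subline and HCC827. In T15-2 none was called by limma where 9.97% of all probes were (5.26% higher, 4.72% lower), and 2 had an unadjusted p below 0.05. In ER3 none was called where 17.3% of all probes were (8.98% higher, 8.31% lower), and 2 had an unadjusted p below 0.05. KLRC2, both APOBEC3G probes and the APOBEC3F probe ILMN_1702706 were above background on no HCC827 array. Their response in HCC827 could not be measured, so the lack of a call decides nothing for them. The APOBEC3G probes and ILMN_1702706 were above background on no T15-2 array either. The nearest were KLRC2 in ER3 (0.60 ± 0.21, limma adjusted p = 0.058) and KLRC3 in T15-2 (0.41 ± 0.14) and in ER3 (0.37 ± 0.14), each with an adjusted p of 0.075. The KLRC2 difference in ER3 was called in 8 of 28 alternative settings. Its limma adjusted p was 0.0062 without ER3 DMSO replicate 2. It was 0.0037 when T15-2 erlotinib replicate 3 was also left out, a setting chosen after seeing the data. With KLRC2 not above background in HCC827, such a call decides no more than the lack of one. KLRC2 in T15-2 was called in 1 setting, and KLRC3 in 1 setting in T15-2 and 2 in ER3. In simulated data, where 200 of 19931 probes were changed, 28% of 1.5-fold differences in response were recovered for ER3. Far fewer probes changed there than were called here, so the share recovered in these data may differ. Differences of this size could still be missed.

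**Figure D4:**
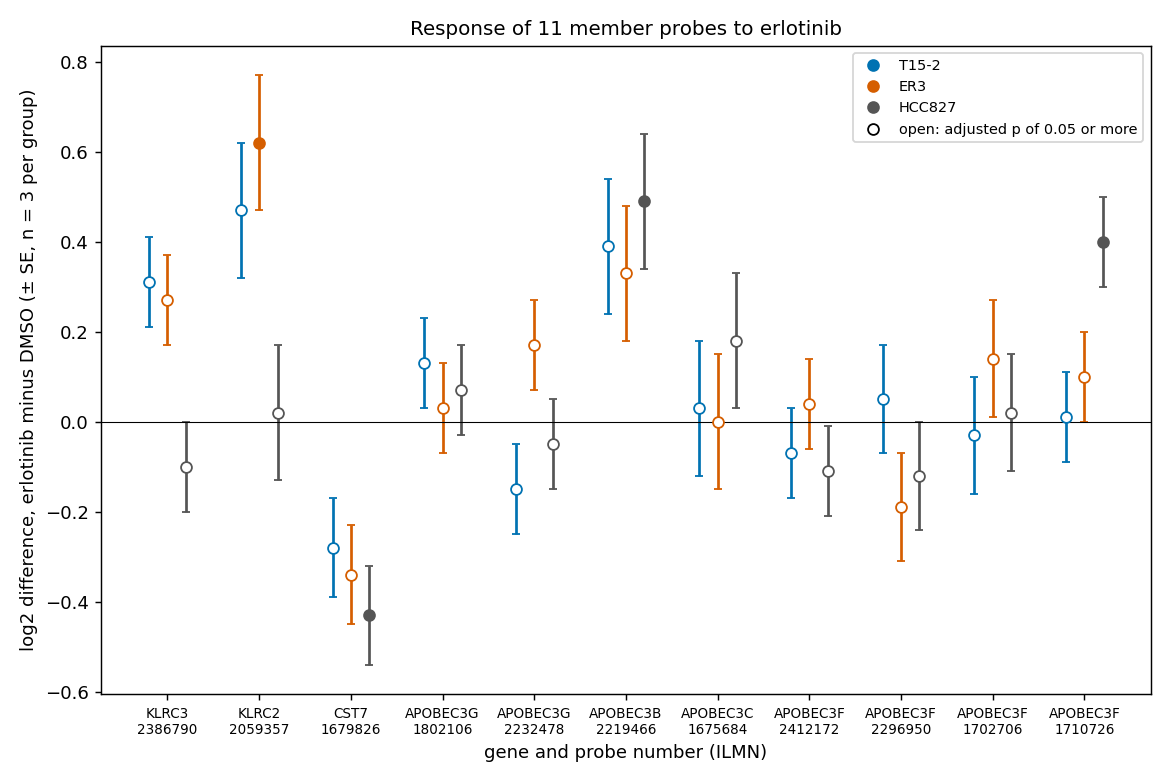
Log2 difference of erlotinib minus DMSO with its standard error (3 arrays a group) for the 11 kept probes in T15-2, ER3 and HCC827; open points have an adjusted p of 0.05 or more. The filled points are KLRC2 in ER3 at 0.62 and, in HCC827, CST7 at −0.43, APOBEC3B at 0.49 and 1 APOBEC3F probe at 0.40.

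Correlations over the 6 group means are given without a test because the points share arrays, lines and normalisation. KLRC3, CST7 and APOBEC3G were chosen on these same means, and APOBEC3G was not above background in 4 of the 6, so the values support nothing about the genes' relation. APOBEC3F is read here from ILMN_2296950, its brightest probe. KLRC3 and CST7 correlated at 0.98 and KLRC3 and KLRC2 at 0.94. APOBEC3G correlated with APOBEC3C at 0.99 and with APOBEC3F at 0.91, with KLRC3 at 0.71 and with CST7 at 0.63. APOBEC3F correlated with KLRC3 at 0.80 and with CST7 at 0.78. APOBEC3B was at −0.52 with KLRC3 and 0.04 with APOBEC3G.

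Among 1757 genes whose group means spanned at least 1 on the log2 scale, the most like KLRC3 were MAD1L1 (0.9944), CLDND1 (0.9931), HPCAL1 (0.9848), KCNIP3 (0.9846) and SBDS (0.9829). MAD1L1, a spindle checkpoint protein, averaged 8.33 in T15-2, 8.71 in ER3 and 7.39 in HCC827 in DMSO. The most like CST7 were KCNIP3 (0.9987), TUBB2B (0.9917), ABL2 (0.9913), NAMPT (0.9866) and FAM184A (0.9844). KCNIP3, a calcium-binding protein, averaged 7.11 in T15-2, 7.42 in ER3 and 5.91 in HCC827 with erlotinib. The most like APOBEC3G were IL20RB (0.9964), AXL (0.9942), VWA2 (0.9930), LUM (0.9914) and LAPTM5 (0.9884), an order that rests on ER3 against means of APOBEC3G at background. In T15-2 and HCC827 the means of VWA2 (4.54 to 4.65) and LAPTM5 (4.60 to 4.64) were also below the dimmest probes above background. AXL, a receptor tyrosine kinase, averaged 6.72 in T15-2, 10.22 in ER3 and 7.25 in HCC827 in DMSO, and LUM, which encodes the matrix proteoglycan lumican, averaged 5.68, 9.39 and 5.48 in the same order of lines.

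Genes beside the clusters did not all move with them. Of the 10 nearest annotated neighbours of the KLRC genes, 5 were measured. GABARAPL1, an autophagy gene, rose by 0.60 ± 0.13 in T15-2 (limma adjusted p = 0.0013, lost with median scaling) and by 1.42 ± 0.13 in ER3 (adjusted p = 4.4e-08). STYK1, a kinase-like gene, rose in ER3 by 0.65 ± 0.12 and MAGOHB, an exon junction gene, fell there (−0.65 ± 0.14). Beside CST7, 4 of 10 were measured, and APMAP rose in T15-2 (0.68 ± 0.10) while ACSS1 fell in ER3 (−0.80 ± 0.15). PYGB, the brain glycogen phosphorylase, rose in T15-2 (0.31 ± 0.09, lost with median scaling and without HCC827 DMSO replicate 1) and fell in ER3 (−0.42 ± 0.09). Beside the APOBEC3 genes, 9 of 10 were measured. The Polycomb gene CBX7 rose by 0.71 ± 0.13 in T15-2 and by 0.82 ± 0.13 in ER3. SUN2 rose in ER3 (0.34 ± 0.09), a call lost with median scaling, and CBX6 fell in T15-2 (−0.27 ± 0.08) and in ER3 (−0.22 ± 0.08), calls lost without HCC827 DMSO replicate 1 or 3, and in ER3 also with the replicate block.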

How the data were processed

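Signals and detection p-values of 48803 Illumina probes on 18 arrays were analysed, 3 for each of 6 groups. The deposited intensity values are bead summary signals on a linear scale without background subtraction, per the file headers and the values, and the submitters' processing notes name BeadStudio without a version. The deposited detection p-values stand beside each signal, per the file headers. A second table from the authors holds intensity values of 48797 probes, quantile-normalized on a linear scale as their equal distributions show (medians 57.69 to 57.71), and served as an alternative. Genes came from the platform annotation, where 28093 probes had 1 symbol, 13 several and 20697 none.

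Signals were corrected with normexp, quantile-normalized with an offset of 16 and put on the log2 scale (neqc in limma 3.58.1, R 4.3.3), with negative-control statistics derived by neqc from those p-values. A probe was kept if 3 or more arrays had it above background, detection p below 0.05 (19931). One limma fit of 6 group means gave 10 comparisons, each adjusted with Benjamini-Hochberg over all kept probes. Lists read a gene from its kept probe with the highest mean (11820 genes). Promoters were searched with Python 3.11.15 and aligned with Biopython 1.88. On simulated data for erlotinib in ER3 (19931 probes, 200 of them changed), 98% of 2-fold, 74% of 1.5-fold and 10% of 1.25-fold changes were recovered. Of the calls, 6.62% were false. For the ER3 response difference on the same number of probes, 86% of 2-fold, 28% of 1.5-fold and 0% of 1.25-fold changes were recovered, with 1.85% false calls.

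The members and lists were chosen with earlier results of these data known. The text names every probe of the members, up to 4 called genes with the largest change per list and comparison, the 5 genes most like each chosen gene, and 5 neighbours on each side of a locus. Some genes outside this rule, such as those given for a call that missed the threshold, were chosen after their values were seen. Alternatives changed the background correction, normalization, source of values, dim filter, probe choice, samples in the fit, moderation, replicate block and the arrays included. No array scan date or slide was used.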

Additional observations from a re-analysis of the deposited data

How the results depend on the processing

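The differences from HCC827 in DMSO of KLRC3 and CST7 in both sublines and of APOBEC3G in ER3 kept their direction under all alternatives run but were smaller without background correction: 1.61 in T15-2 and 2.46 in ER3 for KLRC3 and 1.82 and 2.36 for CST7. For the 90 tested differences of the 11 probes, alternatives left 2416 values on the same side of the threshold, with 32 calls lost and 27 gained. For the 20 untested ones, 516 values stayed within the replicate spread and 39 moved by more. In 65 cases a difference that was not called changed its sign. Erlotinib in ER3, with 472 probes called, gave 710 without background correction, 711 with the authors' values, 13 when the fit held only the groups compared, 1020 without the arrays ER3 DMSO 2 and T15-2 erlotinib 3 (left out after seeing the data) and 134 to 716 leaving out each array. Erlotinib in T15-2 (1132) gave 611 with median scaling, 716 alone and 509 to 1312 leaving out arrays. The T15-2 response difference (1988) gave 3150 without those 2 arrays and 1182 to 2670 leaving out each. The other ranges were 2597 to 4190 for the ER3 response difference, 5094 to 6433 for erlotinib in HCC827, 4166 to 5516 for T15-2 and 4640 to 6010 for ER3 against HCC827 in DMSO, 4462 to 5725 for T15-2 against ER3, and 6089 to 7444 for T15-2 and 6402 to 7719 for ER3 against HCC827 with erlotinib. The cause of these shifts was not tested.

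Median scaling moved the median of all probes by over 0.1 in several comparisons. It became 0.118 for erlotinib in ER3, and −0.088 for T15-2 and −0.158 for ER3 against HCC827 in DMSO. For the T15-2 and ER3 response differences it became 0.182 and 0.195. The share of calls that were higher became 96.1% instead of 50.6% for erlotinib in ER3, 84.5% instead of 48.1% in T15-2 and 27.7% instead of 51.6% in HCC827. It became 20.8% instead of 51.2% for T15-2 and 12.6% instead of 49.3% for ER3 against HCC827 in DMSO, and 67.9% instead of 52.5% for T15-2 against ER3. With erlotinib it became 65.9% instead of 51.5% for T15-2, and for the responses 92.5% instead of 52.7% in T15-2 and 91.3% instead of 51.9% in ER3. Replicate numbers showed no pairing of the arrays. After each group's mean was subtracted, same-numbered arrays of different groups correlated at −0.36 to 0.25, with a median of −0.03. Arrays of other numbers correlated at −0.44 to 0.33, with a median of 0.01. With the replicate block, erlotinib in ER3 gave 376 probes and changed no call of the 11 probes. The median of the T and NK markers ranged from −0.86 to −0.09 in T15-2 and from −0.58 to −0.07 in ER3 over the alternatives. Signal near background limits APOBEC3C, ILMN_1702706 and the HCC827 values of KLRC2 and APOBEC3G.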
